A study of Rattus norvegicus with 5 samples.

Results

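The sparsest 10% of autosomal 100 kb bins was described in anti-PARP1 ChIP-seq (chromatin immunoprecipitation with sequencing) of rat central amygdala. Chromosomes 1 to 20 of build rn4 gave 25590 bins. Of these, 24791 held at least 20 listed peaks of height 2 to 5 reads in each of 3 libraries and were eligible. Those libraries are called high CPP, low CPP and saline 2 below, and the fourth is called saline 1. The members were the 2479 eligible bins with the lowest average share of each library's autosomal peaks of that height. Saline 1 took no part in this choice, so its values are the ones independent of it.

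PARP1, poly(ADP-ribose) polymerase 1, is an abundant nuclear enzyme that binds DNA breaks and nucleosomes and attaches ADP-ribose chains to itself and to neighbouring proteins. It has roles in repairing DNA and in opening chromatin at active genes. Where an antibody's target is spread widely over chromatin, most of a ChIP library consists of low pileups along the whole genome, and the number of such pileups per region is a broad profile rather than a set of binding sites.

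All rats were male Sprague Dawley and, per the labels, went through 10 days of conditioned place preference training, in which a rat learns to link a compartment with an injection. Cocaine (15 mg/kg, intraperitoneal) and saline were given on alternating days with 20 min in the matching compartment. The preference test lasted 15 min and came 24 h after the final injection. The groups were high cocaine CPP (1 library, strong preference for the cocaine side), low cocaine CPP (1 library, weak preference) and control saline only (2 libraries, replicates 1 and 2, no cocaine). Each library pooled the bilateral central amygdala of 2 rats, taken right after the test, so every library is a mixture of the cell types of that tissue. The ages of the rats are not in the labels used, and the input sample was not analysed here. The files hold no expression values, so the tissue label could not be set against marker genes.

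The lists held 3369979 peaks in high CPP, 4037021 in low CPP, 793020 in saline 1 and 3973830 in saline 2. Saline 1 was the shallowest library and its counts per bin are the least precise. With 1 library in each cocaine group no test between groups was run. For 2 cocaine against 2 saline libraries the smallest two-sided p of an exact permutation test is 0.333. All comparisons below are descriptions by fixed rules of size, and bins of a library are not replicates.

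The members held few but not absent peaks in the libraries that chose them. The median member had 73 listed peaks of height 2 to 5 in high CPP, 86 in low CPP and 89 in saline 2. The median of the other 22312 eligible bins was 137, 166 and 163 in the same order. Relative density, the count divided by the mean of all eligible bins of that library, had a member median of 0.558, 0.545 and 0.574. These values chose the members and are given as a description only. The boundary was not a gap in the distribution. The last member inside, on chromosome 5 at 31100000 to 31200000, had an average relative density of 0.7272, and the first bin outside, on chromosome 9 at 44300000 to 44400000, had 0.7273. At the other end, the bin of lowest average, on chromosome 8 at 41700000 to 41800000, had 20 peaks in high CPP, 20 in low CPP, 5 in saline 1 and 23 in saline 2. It was followed by chromosome 2 at 27900000 to 28000000, with 21, 22, 2 and 20 peaks in that order. The minimum of 20 peaks per library set this lower end.

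Saline 1, which the rule did not use, was sparse in the same bins. Its median member held 16 peaks of height 2 to 5 against 32 in the other eligible bins, a relative density of 0.521. Of the 2479 members, 1516 (61.2%) lay in that library's own lowest 10% of eligible bins, those with at most 18 peaks. Bins at or under that count were 9.84% of all eligible bins. In 2389 members the count was below the library's median of 31, and in 62 it was above. The libraries of the rule, each taken alone, placed 2103 (high CPP), 2170 (low CPP) and 2129 (saline 2) members in their own lowest 10%. The lowest 10% of all 4 libraries held 1274 members (51.4%), against 5.14% of all eligible bins. As 3 of these libraries chose the members, that overlap follows in large part from the rule.

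**Figure D1:**
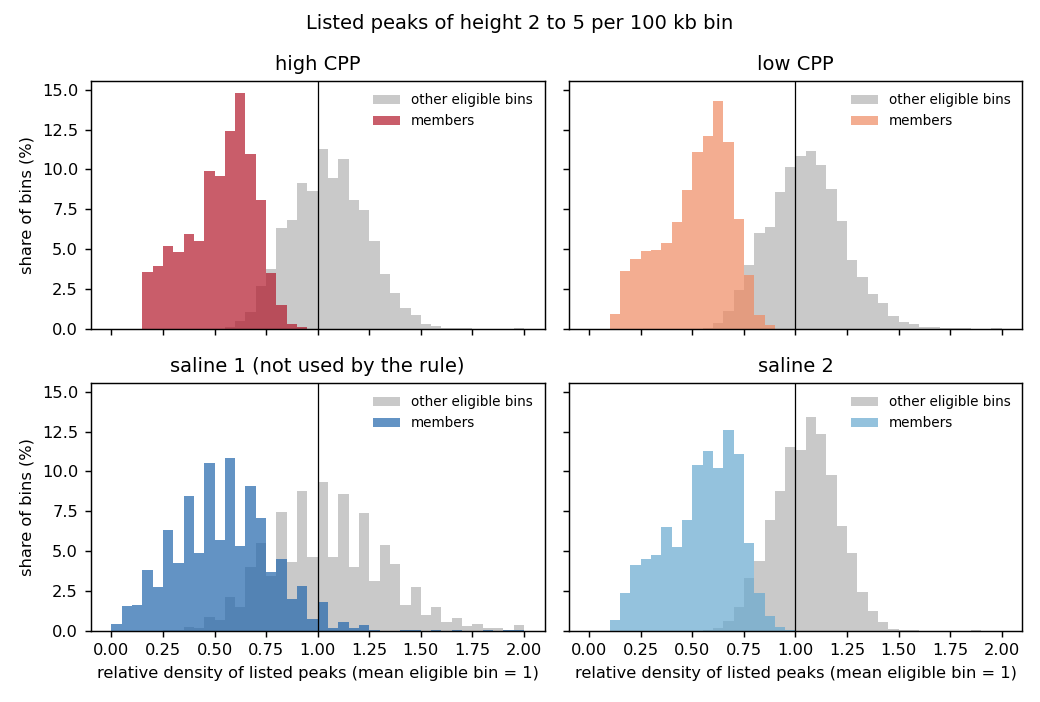
Relative density of listed peaks of height 2 to 5 per 100 kb bin (mean eligible bin = 1) in the 4 libraries, as the share of members (coloured) and of other eligible bins (grey). Values of 2 and above are drawn in the last class. Members and other bins overlap little in the 3 libraries that chose them and more in saline 1, where the member median was 0.521.

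All numbered pileups were also fewer in members. The running number of each list skips values. The skipped values were taken for pileups too low to be listed, which the sources used here do not state. On that reading, the increase of the number across a bin gives all numbered pileups there. Members had a median of 256 numbered pileups in high CPP, 279 in low CPP, 128 in saline 1 and 281 in saline 2. The other eligible bins had 462, 500, 232 and 498. Relative to the mean eligible bin the member medians were 0.589, 0.592, 0.583 and 0.600, which is nearer to 1 than the medians of listed peaks in every library. The share of numbered pileups that was listed at height 2 to 5 had a member median of 28.1%, 31.0%, 13.2% and 31.6%, against 30.1%, 33.4%, 13.9% and 33.1% in the other bins. Listed peaks in members were not shorter, with a median of 78 bp in high CPP, 79 bp in low CPP, 76 bp in saline 1 and 79 bp in saline 2, as in the other bins.

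Most members were interrupted by long stretches without any listed peak. The longest stretch with no listed peak in the 3 libraries of the rule, taken within the bin, had a median of 27.7 kb in members and 5.05 kb in the other eligible bins. It reached 20 kb in 1548 members (62.4%), against 9.49% of all eligible bins. A stretch without peaks lowers the count of its bin, so an excess of this kind follows in part from the rule. Stretches of at least 5 kb, called empty stretches here, took up 42.5% of the length of members and 6.74% of the length of the other bins.

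Saline 1, which defined neither the members nor the stretches, listed few peaks there too. Each empty stretch was here assigned to the bin of its midpoint and counted at full length, also where it reached beyond that bin. The total is therefore not the member length in empty stretches given above. Counted in this way, members held 5336 empty stretches with a total length of 96.4 Mb. Saline 1 listed 830 peaks inside them, or 0.00861 per kb, against 0.307 per kb over all eligible bins. No peak of saline 1 began in 4716 of them (88.4%). Between the listed peaks that flank the stretches, that library had 0.428 numbered pileups per kb against 2.20 over eligible bins. This number also counts pileups between the stretch and the flanking peak and is too high for the stretch itself. In the 1299 member stretches of at least 20 kb it was 0.267 per kb.

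The longest such stretch lay on chromosome 17 at 10212063 to 10382315, a length of 170252 bp. Between its flanking listed peaks only 1 numbered pileup was found in high CPP, 2 in low CPP, 20 in saline 1 and 1 in saline 2. The second, on chromosome 20 at 921453 to 1083665, had 0, 4, 1 and 3. The third, on chromosome 5 at 113721502 to 113882527, had 4, 3, 4 and 1. An ordinary eligible bin of 100 kb had 453 numbered pileups in high CPP at the median, so these stretches were close to empty in all 4 libraries. The bins with the longest stretch inside them were on chromosome 17 at 10200000 to 10300000 (87.9 kb), on chromosome 1 at 121500000 to 121600000 (87.0 kb) and on chromosome 14 at 34700000 to 34800000 (86.2 kb). Their listed peaks of height 2 to 5 numbered 22, 24, 2 and 20 in the first, 30, 29, 6 and 28 in the second and 22, 26, 8 and 28 in the third, in the order high CPP, low CPP, saline 1 and saline 2.

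Most empty stretches were short, with a median length of 9.18 kb in members and 7.52 kb in the other eligible bins. Among the long ones there was a sharp local excess just above 50 kb. Of all empty stretches on the autosomes 169 were from 50 to 51 kb long, 143 of them in members, and 55 were from 51 to 52 kb long. From 44 to 50 kb each step of 1 kb held from 11 to 23. In the 169 stretches the flanking listed peaks enclosed a median of 5 numbered pileups in high CPP, 4 in low CPP, 15 in saline 1 and 4 in saline 2. No genome sequence of build rn4 was used here, so unresolved bases, repeats, base composition and genes in these stretches were not analysed, and their part in the result was not tested.

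Outside the empty stretches members came much closer to the rest of the genome, which follows in large part from how the stretches were defined. The stretches hold no listed peak of the 3 libraries that chose the members. Taking off their length can only raise the density of a bin, most where they take up most of it. The values are given as a description only. With the length in empty stretches taken off each bin, the relative density of the median member was 0.857 in high CPP, 0.855 in low CPP, 0.857 in saline 1 and 0.885 in saline 2. In 550 members (22.2%) the average of the 3 libraries then reached that of the mean eligible bin. Only 1132 (45.7%) were among the lowest 10% of eligible bins by this measure. By this measure the members ranged from interrupted bins to bins that were thin throughout.

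Grouped by longest empty stretch, the members differed in the same way, which follows in large part from the rule. Every member was chosen for a low count over the whole bin. One with little length in empty stretches must therefore stay low outside them. The classes are given as a description only. The 539 with a stretch of at least 50 kb had a median relative density of 0.397 in high CPP, 0.406 in low CPP, 0.390 in saline 1 and 0.393 in saline 2. Outside the stretches their medians were 0.986, 0.974, 0.956 and 0.965, close to an ordinary bin in every library. No other eligible bin had so long a stretch, which the rule nearly fixes. At the opposite end, 324 members had no stretch of 10 kb. Their medians were 0.627, 0.602, 0.634 and 0.671 over the whole bin and stayed at 0.707, 0.660, 0.701 and 0.743 outside empty stretches. They were 1.71% of the 18977 eligible bins without a stretch of 10 kb. Numbered pileups of these 324 stood at 0.726, 0.718, 0.702 and 0.745 of the mean.

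**Figure D2:**
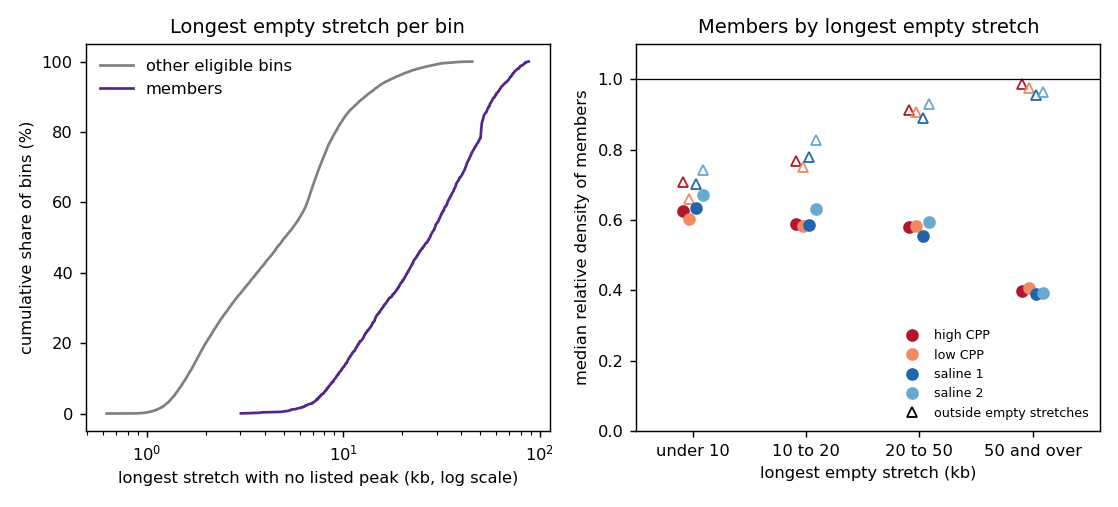
Left, cumulative share of bins (%) by the longest stretch with no listed peak in the 3 libraries of the rule (kb, log scale), for members and other eligible bins, with medians of 27.7 and 5.05 kb. Right, median relative density of members in 4 classes of longest stretch, over the whole bin (filled circles) and outside empty stretches of at least 5 kb (open triangles), by library. The triangles rise from between 0.660 and 0.743 to between 0.956 and 0.986 as the longest stretch grows.

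Every autosome held members, at shares that differed less than 2-fold. Members made up 13.3% of eligible bins on chromosome 1 (341 of 2555), 13.1% on chromosome 12 (58 of 442) and 12.7% on chromosome 20 (68 of 535). The lowest shares were 7.11% on chromosome 8 (89 of 1252), 7.15% on chromosome 18 (61 of 853) and 8.31% on chromosome 9 (92 of 1107). The own lowest 10% of saline 1 ranged from 6.92% of eligible bins on chromosome 10 to 11.8% on chromosome 20. On chromosome 1 it took 11.5%, on chromosome 12 only 9.28%, on chromosome 8 8.15% and on chromosome 18 7.85%. Chromosome 12 was thus high by the rule and not in the library left out of it. The share of members in the lowest 10% of saline 1 was between 47.4% (chromosome 13) and 70.8% (chromosome 8).

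**Figure D3:**
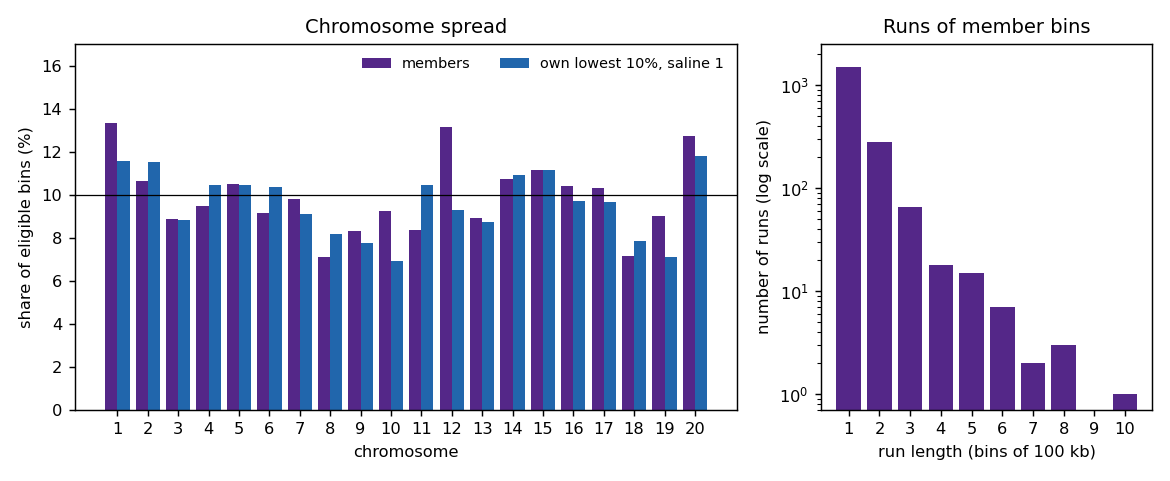
Left, share of eligible bins (%) per chromosome that were members and that lay in the own lowest 10% of saline 1, with a line at 10%. The member shares run from 7.11% on chromosome 8 to 13.3% on chromosome 1. Right, number of runs (log scale) by length in bins of 100 kb, from 1483 single bins to 1 run of 10.

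Members were more frequent near chromosome ends and beside bins that failed the minimum. In the first 2 Mb of the chromosomes 94 of 372 eligible bins (25.3%) were members, and in the last 2 Mb 50 of 391 (12.8%). Away from both ends the share was 9.72%. Beside a bin under the minimum of 20 peaks, 435 of 807 eligible bins (53.9%) were members, against 8.52% of the others. Over windows of 5 Mb the median number of members was 4, and 14 of 522 windows held none. The windows with most members, picked after their values were seen, were chromosome 12 at 0 to 5000000 (20 of 46 eligible bins) and chromosome 1 at 30000000 to 35000000 (19 of 36).

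Most members had no member next to them, and a minority formed runs. A run ended at any bin that was not a member, also at one under the minimum of 20 peaks. Bins under the minimum had a median of 1 peak in high CPP, and 435 members lay beside one. Sparse ground can therefore extend beyond a run. The 2479 members fell into 1876 runs, of which 1483 were single bins, 282 were pairs and 111 had at least 3 bins. Those 111 runs held 432 members (17.4%). Where the next bin was eligible it was also a member in 26.9% of cases, against 10.0% of all eligible bins. In saline 1 the same share for its own lowest 10% was 20.4%, against 9.84%. The density around members was back near the mean within about 1 Mb. In saline 1 the mean relative density was 0.546 in members, 0.859 and 0.869 in the adjoining eligible bins, 0.956 and 0.950 at 500 kb and 0.975 and 0.978 at 1000 kb.

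**Figure D4:**
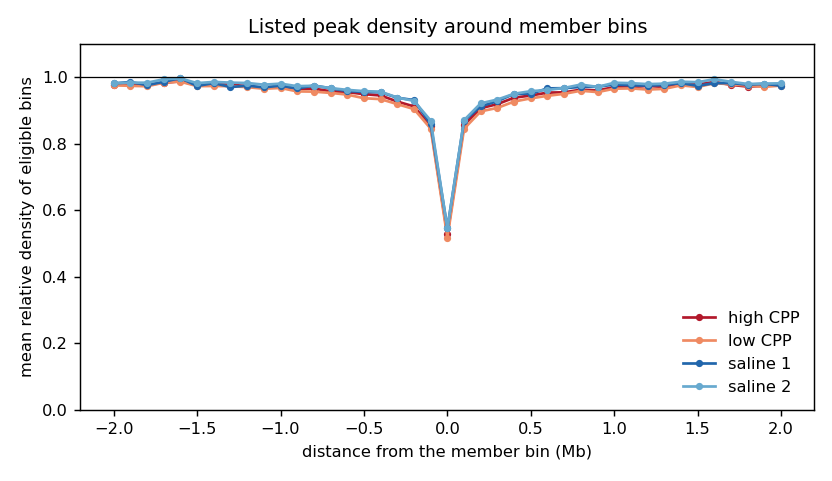
Mean relative density of eligible bins (mean eligible bin = 1) by distance from a member (Mb), for the 4 libraries. All of them dip to between 0.518 and 0.546 at the member, stand between 0.845 and 0.871 in the adjoining bins and approach 1 over about 1 Mb.

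The longest run spanned 10 bins on chromosome 1 at 32600000 to 33600000. Its bins held 275 peaks of height 2 to 5 in all in high CPP, 308 in low CPP, 53 in saline 1 and 346 in saline 2. Relative density was 0.210, 0.195, 0.172 and 0.223, and all 10 bins were in the lowest 10% of saline 1. Empty stretches took 427 kb of this run, the longest of them 23.6 kb, and density outside them was still only 0.341, 0.324, 0.278 and 0.365. This megabase was therefore thin between its empty stretches too. No peak in it reached 10 reads in any library.

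The next runs were 8 bins long. On chromosome 9 at 112600000 to 113400000 relative density was 0.427 in high CPP, 0.402 in low CPP, 0.382 in saline 1 and 0.449 in saline 2, with 158 kb in empty stretches. Outside them it was 0.469, 0.447, 0.423 and 0.495, so this run too was sparse throughout. On chromosome 17 at 8300000 to 9100000 it was 0.461, 0.457, 0.488 and 0.515, with 0.532, 0.535, 0.570 and 0.600 outside 176 kb of empty stretches. On chromosome 15 at 29100000 to 29900000 the libraries stood further apart, at 0.398, 0.460, 0.504 and 0.552. Of 2 runs of 7 bins, the one of lower density, on chromosome 16 at 38900000 to 39600000, had 0.411, 0.374, 0.539 and 0.427. The other, on chromosome 2 at 187100000 to 187800000, had 0.499, 0.456, 0.702 and 0.546. Over the 28 runs of at least 5 bins, which held 165 members, relative density outside empty stretches had a median of 0.613 in high CPP, 0.607 in low CPP, 0.681 in saline 1 and 0.685 in saline 2. These medians are below those of all members, 0.857, 0.855, 0.857 and 0.885.

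Peaks taller than the rule counted were not scarce in members. Of the peaks of at least 10 reads in eligible bins, members held 112 of 292 in high CPP (38.4%), 132 of 323 in low CPP (40.9%), 21 of 95 in saline 1 (22.1%) and 154 of 367 in saline 2 (42.0%). The same bins held only 5.26%, 5.17%, 5.45% and 5.44% of the autosomal peaks of height 2 to 5. At least 1 such tall peak was found in 41 members in high CPP (1.65%, against 0.492% of all eligible bins), 40 in low CPP (1.61%, against 0.516%), 12 in saline 1 (0.484%, against 0.234%) and 48 in saline 2 (1.94%, against 0.549%). A few members held most of them. Other eligible bins were uneven too, with at most 31, 27, 8 and 37 tall peaks in 1 bin, against 18, 24, 4 and 23 in members. Without the 10 members with most tall peaks the shares were 18.9%, 18.7%, 8.64% and 23.4%. The richest other bins were kept, so a fall follows from this step itself. Saline 1, with 7 of 81 peaks, then lay under the 10.0% that members make up of eligible bins. Peaks of 6 to 9 reads were also frequent in members, at 21.0%, 15.0%, 51.5% and 17.1% of those in eligible bins. Without the same 10 members these shares were 17.1%, 12.6%, 29.9% and 14.0%, and the greatest fall was that of saline 1. In saline 1 the 10 members with most peaks of 6 to 9 reads held 66.7% of the member peaks of this height. Those members were ranked by this height and need not be the ones left out.

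Members with at least 1 tall peak in all 4 libraries numbered 11 (against 0.218% of all eligible bins). The most tall peaks were found on chromosome 16. A run of 5 members at 20400000 to 20900000 held 36 peaks of at least 10 reads in high CPP, 44 in low CPP, 6 in saline 1 and 47 in saline 2. Its last bin, at 20800000 to 20900000, alone held 18, 24, 4 and 23, with a tallest peak of 23, 22, 14 and 25 reads. Low peaks in this run were sparse in 3 libraries, with a relative density of 0.449 in high CPP, 0.372 in low CPP and 0.387 in saline 2. Saline 1 stood at 1.41 over the run, above an ordinary bin, but unevenly. Its 5 bins had 0.943, 1.82, 0.651, 0.748 and 2.90 in order, and the last held 89 of the run's 217 low peaks. The saline libraries thus differed 3.65-fold in their share of low peaks here (exact conditional binomial interval 3.05 to 4.36, for counting error only), and the run's numbered pileups were 0.548 of the mean in saline 1 against 0.329 in saline 2.

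The share of saline 1 was at least 1.5 times that of saline 2 in 218 members (8.79%, against 3.74% of all eligible bins). In 110 (4.44%, against 3.28%) the interval also left out 1. The relative density of saline 1 reached 1.5 in 7 members (0.282%), against 4.73% of all eligible bins. Members were chosen for low density in the other libraries, so few such bins follow in large part from the rule. The highest relative density of saline 1 was on chromosome 9 at 1000000 to 1100000, with 104 peaks in saline 1 against 69 in high CPP, 80 in low CPP and 61 in saline 2. Of those 104 peaks 56 had heights of 3 to 5. The other two named by the rule, both on chromosome 16, were at 20800000 to 20900000 (94, 91, 89 and 83 peaks in high CPP, low CPP, saline 1 and saline 2) and at 21500000 to 21600000 (93, 65, 59 and 87). The member with the tallest peak of all was of another kind. On chromosome 2 at 156700000 to 156800000 a pileup reached 563, 543, 225 and 638 reads in a bin of relative density 0.558, 0.609, 0.586 and 0.793.

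Between high and low CPP the members differed little. As a share of the autosomal total, members held 1.02 times as many low peaks in high CPP as in low CPP (interval 1.01 to 1.02), and other eligible bins 0.999 times. The median ratio over single members was 1.02, with a 5th to 95th percentile range of 0.739 to 1.44. The ratio was at least 1.5 in 88 members (3.55%, against 0.516% of all eligible bins) and at most its inverse in 40 (1.61%, against 0.327%). Members hold fewer peaks than other bins, so their ratios carry more counting error than those behind the shares of all eligible bins. With the added demand that the exact conditional binomial interval leaves out 1, 67 members (2.70%, against 0.432%) were higher and 31 (1.25%, against 0.29%) were lower in high CPP. By numbered pileups the same rule called 4 members higher (against 0.0202% of eligible bins) and 1 lower (against 0.00403%).

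The members with the highest ratios of high to low CPP were close to the minimum of 20 peaks in low CPP. On chromosome 3 at 15900000 to 16000000 there were 36 peaks in high CPP and 20 in low CPP, with 6 and 35 in saline 1 and saline 2. The ratio was 2.17 (1.22 to 3.96). On chromosome 5 at 7000000 to 7100000 there were 37 and 21, a ratio of 2.12 (1.21 to 3.82), with 4 and 34 in saline. Low CPP stood highest against high CPP on chromosome 17 at 72400000 to 72500000, with 38 peaks in high CPP, 104 in low CPP, 26 in saline 1 and 45 in saline 2. The ratio was 0.440 (0.295 to 0.644). The second was on chromosome 15 at 106500000 to 106600000, with 61, 133, 25 and 91 peaks and a ratio of 0.553 (0.401 to 0.754). Among the 28 longer runs the ratio lay between 0.867 on chromosome 15 at 29100000 to 29900000 and 1.21 on chromosome 6 at 138500000 to 139000000. The latter run held 352 peaks in high CPP, 350 in low CPP, 70 in saline 1 and 427 in saline 2. The other named runs were on chromosome 16 at 20400000 to 20900000, also at 1.21, and on chromosome 1 at 112100000 to 112600000, at 0.933.

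Both cocaine libraries were somewhat sparser in members than saline 2. The ratio of shares summed over members was 0.967 for high CPP (0.961 to 0.973) and 0.950 for low CPP (0.944 to 0.956), against 1.00 for both in the other eligible bins. These 2 ratios share saline 2, and all 3 libraries took part in the choice of members. High CPP was below saline 2 on 17 of 20 chromosomes and low CPP on 18. By numbered pileups the median member ratios were nearer to 1, at 0.987 and 0.979. Saline 1 over saline 2, the only pair within a group, gave 1.00 (0.991 to 1.01) over the sum and 0.976 at the median member, and from 0.931 to 1.20 by chromosome. Saline 1 took no part in the choice of members and the other 3 libraries did, so the saline pair is no like-for-like range for the cocaine ratios.

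Single members reached a ratio of 1.5 in both directions. High CPP was at least 1.5 times saline 2 in 47 (against 0.464% of all eligible bins) and at most the inverse in 86 (against 0.702%). For low CPP the counts were 36 (against 0.407%) and 99 (against 0.666%). Saline 1 over saline 2 gave 218 (against 3.74%) and 412 (against 8.16%), or 110 (against 3.28%) and 108 (against 4.99%) with the demand on the interval. With that demand high CPP gave 33 (1.33%, against 0.407%) and 75 (3.03%, against 0.657%). Low CPP gave 29 (1.17%, against 0.379%) and 80 (3.23%, against 0.589%). The saline pair thus had more calls, but saline 1 has the fewest peaks, so its ratios carry the most counting error. With the interval its shares were 4.44% and 4.36% of members, nearer to those of all eligible bins than in the cocaine comparisons. The numbers of calls are therefore not like for like.

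By longest stretch, the ratios to saline 2 ran as follows. The 3 libraries compared also chose the members and defined the stretches, and the classes differ in how strictly they were chosen, from 1.71% of eligible bins with no stretch of 10 kb to all of those with at least 50 kb. The order of the classes is therefore a description only, and the part of the choice in it was not tested. In the 324 members with no stretch of 10 kb the ratio to saline 2 was 0.936 for high CPP (0.921 to 0.951) and 0.898 for low CPP (0.884 to 0.913). With a longest stretch of 10 to 20 kb it was 0.945 and 0.922, and with 20 to 50 kb it was 0.976 and 0.966. In the 539 members with a stretch of at least 50 kb it was 1.01 for high CPP (0.996 to 1.03) and 1.00 for low CPP (0.989 to 1.02). High over low CPP was 1.04 (1.02 to 1.06) with no stretch of 10 kb, 1.02 (1.01 to 1.04) with 10 to 20 kb and 1.01 (0.993 to 1.02) with at least 50 kb. Saline 1 over saline 2 was 0.990 (0.964 to 1.02), 1.02 (0.998 to 1.04) and 1.01 (0.985 to 1.04) in the same 3 classes. In the other eligible bins with no stretch of 10 kb the ratios to saline 2 were 1.00 for both cocaine libraries. By numbered pileups saline 1 was itself at 0.950 of saline 2 in the thin class, below high CPP at 0.972 and low CPP at 0.956. By that measure all 3 other libraries lay below saline 2, and both cocaine libraries lay above saline 1.

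**Figure D5:**
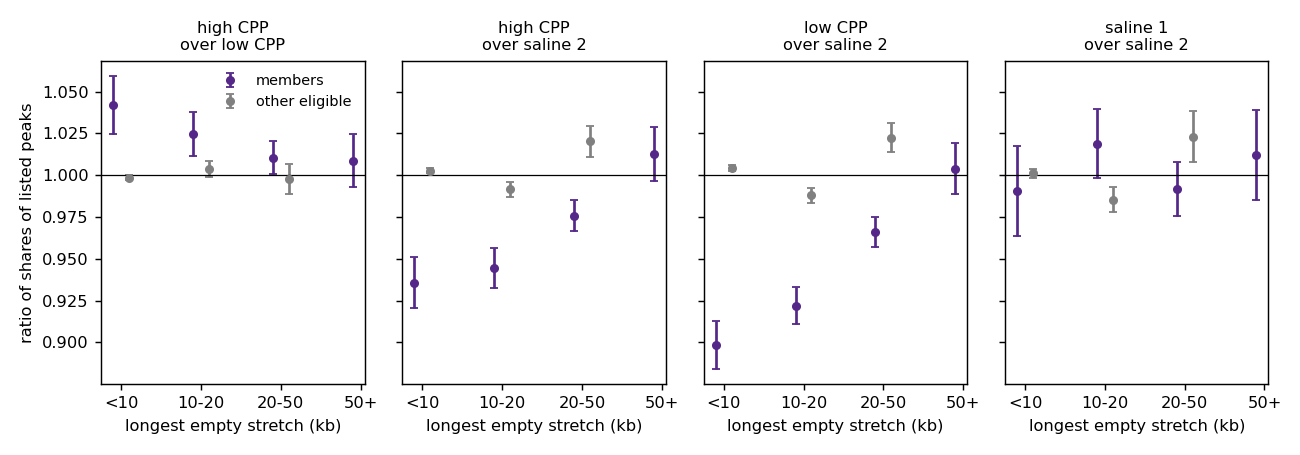
Ratio of 2 libraries' shares of listed peaks of height 2 to 5, summed over members (purple) and other eligible bins (grey), by longest empty stretch in the bin (kb). Bars are exact conditional binomial intervals for counting error only. The members without a stretch of 10 kb stand lowest for both cocaine libraries against saline 2, at 0.936 and 0.898, and the saline pair stays between 0.990 and 1.02 in members.

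Few members separated both cocaine libraries from both saline libraries. Both cocaine shares were at least 1.5 times both saline shares in 6 members (0.242%, against 0.0282% of all eligible bins) and at most the inverse in 4 (0.161%, against 0.0202%). Without saline 1 the counts were 16 (against 0.133%) and 17 (against 0.0887%), and without saline 2 they were 234 (9.44%, against 4.73%) and 153 (6.17%, against 1.71%). Saline 1 is the library with the fewest peaks, and its part in these counts was not tested. Among the 6, chromosome 1 at 75300000 to 75400000 had 84 peaks in high CPP, 93 in low CPP, 3 in saline 1 and 22 in saline 2. Its ratios to saline 2 were 4.52 (2.80 to 7.60) for high CPP and 4.16 (2.59 to 6.95) for low CPP, the largest of any member in both comparisons. By numbered pileups they were 2.44 and 2.54. The adjoining bin on one side had no listed peak of height 2 to 5 in any library, and the member on the other side, at 75400000 to 75500000, had 48, 60, 8 and 34 peaks. The second largest ratio of high CPP was nearby on chromosome 1 at 74700000 to 74800000, with 67, 56, 17 and 35 peaks. That of low CPP was on chromosome 1 at 115500000 to 115600000, with 28, 47, 2 and 20.

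In the opposite direction, the lowest ratios to saline 2 were in bins of chromosome 3 where saline 2 stood alone rather than both saline libraries. On chromosome 3 at 137900000 to 138000000 there were 31 peaks in high CPP, 56 in low CPP, 10 in saline 1 and 151 in saline 2. The neighbouring member at 137800000 to 137900000 had 51, 49, 11 and 130. Relative density over these 2 bins was 0.839 and 0.974 in saline 2 and between 0.237 and 0.390 in the 3 other libraries. The bin at 138600000 to 138700000 had 36, 64, 8 and 103. Eligible bins between them were less uniform, and at 138100000 to 138200000 the order was the opposite, with 249, 285, 94 and 167 peaks. The 4 members in which both cocaine libraries were lower than both saline libraries lay on chromosomes 7, 11, 15 and 18. The one on chromosome 18, at 77900000 to 78000000, had 32, 41, 17 and 73 peaks, and the one on chromosome 11, at 19000000 to 19100000, had 34, 44, 17 and 68.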

How the data were processed

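Each library has its own deposited list of peaks (replicates not pooled), and the file headers name 5 of the 7 columns. Going by its values, the deposited column 6 is a signal, the height of a pileup in reads, not scaled to depth. The deposited column 7 was taken for a p-value and left unused. Build rn4, Bowtie 0.12.7 and Picard 1.37 come from the submitters' processing notes. How peaks were called and duplicates handled is not given in the sources used here. Whether positions count from 0 or 1 is not stated either.

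Bins of 100 kb were filled by peak start with Python 3.11.15, numpy 2.4.6 and scipy 1.17.1. Shares are of the autosomal total. Numbered pileups were read from the running number, interpolated at bin edges. Ratio intervals are exact conditional binomial 95% intervals and cover counting error only, since peaks are not independent molecules. A bin was called at a ratio of 1.5. The code was tested on simulated data. The members, lists and rules were chosen with earlier results of these data known. Named bins are the 5 longest runs, the lowest members, those next to the threshold, and the extremes of each ratio, of saline 1, of empty stretches and of peak height. The division by empty stretches, the demand on the interval, the shares without 10 members, and the surroundings of single bins were chosen after seeing the data. Genes and sequences were not used here, because the annotation at hand is of another build.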

Additional observations from a re-analysis of the deposited data

How the results depend on the processing

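Apart from the number of members, which the rule fixes, 44 of 80 recomputed values stayed within 1.5 times the value reported, or for shares of tall peaks within their binomial interval. The lowest 5% and 20% gave 1239 and 4958 members by construction, with 162 and 1495 in runs of at least 3 bins (432 in the report). Members in the lowest 10% of saline 1 numbered from 274 to 1942 over all alternatives. Heights 3 to 5 left 19772 eligible bins and 1977 members, of which only 227 were members in the report, so they describe other bins. They gave 274 in the lowest 10% of saline 1 and 94 in runs. In high against low CPP 206 were higher (10.4%, against 7.81% of eligible bins) and 0 lower (against 4.17%). With both cocaine libraries set against both saline libraries, 15 (0.759%, against 1.07%) were above and 0 (against 0.349%) below. High CPP must hold at least 20 peaks of these heights while the average must be low, which leaves little room for a lower call. The counts of 0 are therefore a description only. Higher and lower in high CPP became 50 and 25 with a minimum of 40 peaks, 4 and 1 with a fold of 2, and 4 and 1 by numbered pileups, and lower became 65 with a minimum of 10. Both cocaine above and below both saline became 12 and 8 with a minimum of 10, 2 and 0 with a minimum of 40, 1 and 0 with a fold of 2 and 1 and 0 by numbered pileups. Above became 10 with saline 2 left out of the rule, and below became 2 with height 2 only and 2 with bins shifted by 50 kb. For these counts no share of all eligible bins was computed, except for high against low CPP by numbered pileups, given above. They therefore do not show whether the members moved apart from all eligible bins. Leaving out a saline library gave from 16 to 234 above and from 17 to 153 below. Of alternatives chosen after seeing the data, density outside empty stretches gave 785 in the lowest 10% of saline 1 and 713 in runs, and tall peaks without 10 members fell to 18.9%, 18.7%, 8.64% and 23.4%. The cause of these shifts was not tested. No paired analysis was possible because each cocaine group has 1 library and no test was run. Saline 1 sets the precision of every comparison with it.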

Other observations

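The 799 autosomal bins under the minimum of 20 peaks were left out of the comparisons above. They formed 423 runs, the longest of 25 bins. Of them 351 held no listed peak of height 2 to 5 in any of the 4 libraries, in 225 runs of at most 6 bins. These bins were not without tall peaks, and peaks of at least 10 reads in them numbered 16 in high CPP, 10 in low CPP, 7 in saline 1 and 12 in saline 2.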
